A study of Mus musculus with 15 samples.

Results

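Of 93215 nuclear regions of accessible chromatin in mouse liver cells, 870 (0.933%) are described here. On group means they were open in both biliary groups and at least 4-fold lower in hepatocytes of injured livers. In reprogrammed hepatocytes they were open at close to the level of DDC biliary cells. They were chosen by level alone. The mean of 3 libraries had to be at least 5 RPM (reads per 1000000 nuclear reads in regions) and at least 4 times the mean of DDC hepatocytes in each of reprogrammed cells, DDC biliary cells and untreated biliary cells. The mean in reprogrammed cells also had to be at least 0.75 of that in DDC biliary cells and less than 3 times that in untreated biliary cells. These measured values chose the regions, so contrasts among the 4 groups are given below as description. The calls of limma and edgeR printed for them support nothing. Untreated hepatocytes are the sole group that the choice did not use.

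The data were ATAC-seq, in which a transposase cuts accessible DNA, with 15 libraries in 5 groups of 3. The groups were untreated hepatocytes, untreated biliary cells, and hepatocytes, reprogrammed hepatocytes and biliary cells after DDC. DDC is diethoxycarbonyl-dihydrocollidine, which is mixed into the diet to injure bile ducts. All cells were taken from liver by sorting, with no culture. Strain, age, length of treatment, sort markers, how reprogrammed cells were told from other hepatocytes, and whether replicates were separate animals are not stated in the labels. The p-values therefore measure the spread between these libraries, which may be technical.

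Biliary epithelial cells (cholangiocytes) line the bile ducts, carry a primary cilium, and modify bile through ion and bile acid transport. During bile duct injury, hepatocytes can take on biliary features, a process known to involve Notch signalling and YAP, the transcriptional coactivator that binds DNA through TEAD factors. Accessible regions away from start sites often mark regulatory DNA used in one cell type and not in another.

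The regions held few reads in hepatocytes. A member had a median of 2 reads in the 3 untreated hepatocyte libraries together and 10 in DDC hepatocytes, against 341.5 in reprogrammed cells, 375.5 in the biliary cells after DDC and 131 in those untreated. The depth in nuclear reads ran from 201705 to 605309 in untreated hepatocytes, 1191409 to 2342643 in DDC hepatocytes, and 2439831 to 10395918 in the other 9 libraries. The mitochondrial share of reads was 76.6 ± 11.7% in untreated hepatocytes and 34.1 ± 7.24% in DDC hepatocytes, and between 9.24 ± 5.14% and 18.6 ± 4.33% in the other groups (mean ± SD, n = 3). One read in untreated hepatocytes was worth 4.96, 1.65 and 4.26 RPM in the 3 libraries. Of the 870 members, 228 had no read in any untreated hepatocyte library and 532 had 3 or fewer. The parts of depth and mitochondrial share in the results below were not tested, beyond the refits on reads thinned to one depth.

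The sequences below are the 250 bases before the start site of 6 genes whose start region was a member, from RefSeq on GRCm38.p6 (mm10), in the direction of the gene. They show start sites of Notch, YAP and growth factor genes described further on, and of Tinagl1, which had one of the highest levels in reprogrammed cells. Tinagl1 lies at chr4:130175123-130175372 on the minus strand, Ptpn14 at chr1:189728018-189728267 on the plus strand and Lfng at chr5:140607091-140607340 on the plus strand. Jag2 lies at chr12:112929496-112929745 on the minus strand, Erbb2 at chr11:98412234-98412483 on the plus strand and Igf1r at chr7:67952007-67952256 on the plus strand. Capitals mark a TEAD, AP-1 or RBPJ motif on either strand.
Tinagl1: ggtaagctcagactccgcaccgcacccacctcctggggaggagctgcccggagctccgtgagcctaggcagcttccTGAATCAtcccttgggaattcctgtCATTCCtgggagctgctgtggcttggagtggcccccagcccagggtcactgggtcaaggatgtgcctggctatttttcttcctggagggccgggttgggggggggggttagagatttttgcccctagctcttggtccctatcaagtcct
Ptpn14: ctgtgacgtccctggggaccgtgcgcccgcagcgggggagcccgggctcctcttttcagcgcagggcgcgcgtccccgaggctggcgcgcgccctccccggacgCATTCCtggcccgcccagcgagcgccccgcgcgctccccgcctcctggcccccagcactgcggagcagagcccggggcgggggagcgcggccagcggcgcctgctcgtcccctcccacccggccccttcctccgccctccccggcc
Lfng: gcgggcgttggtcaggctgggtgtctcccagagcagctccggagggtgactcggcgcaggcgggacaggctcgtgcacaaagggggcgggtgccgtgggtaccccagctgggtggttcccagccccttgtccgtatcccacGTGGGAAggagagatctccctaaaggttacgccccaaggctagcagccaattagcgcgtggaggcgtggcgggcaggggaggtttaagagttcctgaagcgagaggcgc
Jag2: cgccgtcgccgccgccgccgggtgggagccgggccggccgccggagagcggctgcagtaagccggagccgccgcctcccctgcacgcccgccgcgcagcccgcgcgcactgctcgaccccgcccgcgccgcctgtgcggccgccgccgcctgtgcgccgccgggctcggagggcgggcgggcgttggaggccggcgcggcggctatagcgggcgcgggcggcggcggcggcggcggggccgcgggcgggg
Erbb2: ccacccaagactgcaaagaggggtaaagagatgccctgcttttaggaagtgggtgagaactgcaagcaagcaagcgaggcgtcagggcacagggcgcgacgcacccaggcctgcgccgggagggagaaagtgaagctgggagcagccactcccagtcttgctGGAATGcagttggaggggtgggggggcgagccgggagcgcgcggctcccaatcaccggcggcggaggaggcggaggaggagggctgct
Igf1r: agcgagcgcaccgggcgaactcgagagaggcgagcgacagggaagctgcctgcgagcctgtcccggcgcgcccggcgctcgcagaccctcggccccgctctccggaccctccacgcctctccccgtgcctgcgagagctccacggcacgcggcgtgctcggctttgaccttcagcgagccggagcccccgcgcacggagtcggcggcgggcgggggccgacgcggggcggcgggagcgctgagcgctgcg
A TEAD motif (GGAATG) stood before Tinagl1, Ptpn14 and Erbb2. An AP-1 motif (TGANTCA) stood before Tinagl1, and the motif of RBPJ (GTGGGAA), the DNA-binding factor of the Notch pathway, before Lfng. The stretches of Jag2 and Igf1r held none of these 3 motifs. GC boxes, counted further on, are not marked.

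As a set, the members took up a like share of reads in reprogrammed and biliary cells. In reprogrammed cells they drew 1.90% (95% Wilson interval 1.89 to 1.91), 1.68% (1.67 to 1.68) and 1.45% (1.44 to 1.46) of nuclear reads in libraries 1, 2 and 3. DDC biliary cells gave 1.88% (1.87 to 1.89), 1.77% (1.76 to 1.78) and 1.70% (1.69 to 1.71), and untreated biliary cells 1.54% (1.52 to 1.55), 1.81% (1.80 to 1.83) and 1.78% (1.76 to 1.79). The 3 groups overlapped, and reprogrammed library 3 was the lowest of the 9. DDC hepatocytes gave 0.300% (0.293 to 0.307), 0.192% (0.186 to 0.198) and 0.198% (0.190 to 0.206). Untreated hepatocytes, which chose no region, gave 0.364% (0.339 to 0.391), 0.229% (0.217 to 0.241) and 0.351% (0.328 to 0.376), and so lay near DDC hepatocytes and below every biliary library. The intervals cover counting error only, and take each read as independent.

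**Figure D1:**
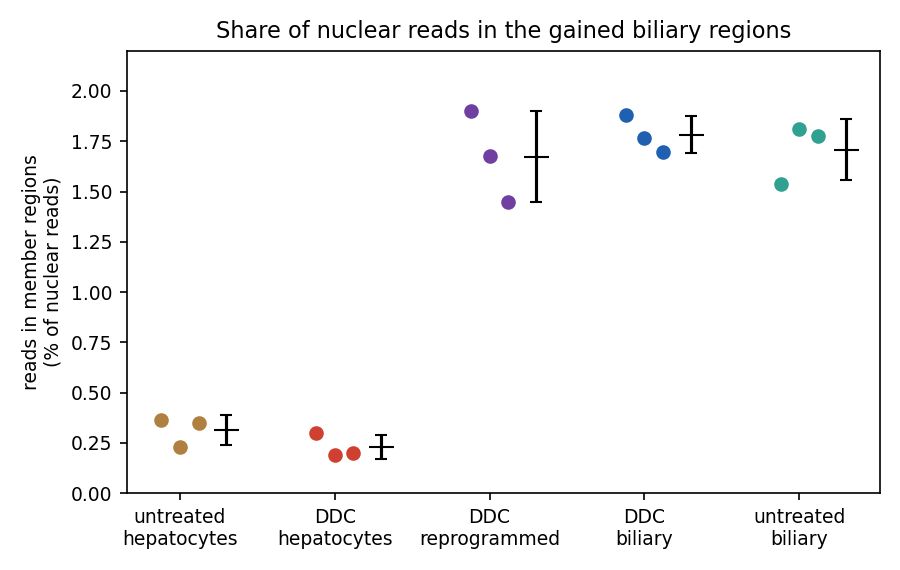
Share of nuclear reads (%) in the 870 member regions for each of the 15 libraries (points), by group, with the group mean and SD to the right. The reprogrammed libraries sit between 1.45% and 1.90%, among the biliary libraries, and the 6 hepatocyte libraries sit between 0.192% and 0.364%.

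Region by region, the median level of the members was 14.1 RPM in reprogrammed cells (quartiles 9.05 and 23.0), 14.5 in DDC biliary cells, with 13.7 in those untreated. It was 1.74 in DDC hepatocytes and 2.84 in untreated hepatocytes. Over all nuclear regions the 5 group medians lay between 2.52 and 3.30 RPM. Counted on pooled reads, with fewer than 3 reads set to 3, the members' median ratio of reprogrammed cells to DDC hepatocytes was 7.67 (quartiles 5.63 and 10.9). The choice required a ratio of 4 on library means, so this is a description.

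The biliary level was reached on average, not in each library. The members' median ratio of reprogrammed to DDC biliary cells was 0.931 (quartiles 0.831 and 1.05, highest 2.05), and 305 of 870 exceeded 1. Against untreated biliary cells the median ratio was 1.02 (quartiles 0.775 and 1.35, lowest 0.178), with 456 above 1. The choice set no lower limit on this ratio. Taken singly, reprogrammed library 1 reached 0.75 of the DDC biliary mean in 838 members, library 2 in 648 and library 3 in 533, and 356 members had all 3 libraries there. The median ratio was 1.07, 0.919 and 0.811 for libraries 1, 2 and 3, so library 1 stood highest. Without it the choice left 667 regions, 640 of them among the 870.

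The members were the smaller part of the biliary regions. Both biliary groups passed the level and the 4-fold minimum in 3056 regions, and 28.5% of these were members. A further 2076 had reprogrammed cells below 0.75 of DDC biliary cells. Those regions, called lagging below, had a median ratio of 0.473 and a median level of 6.0 RPM in reprogrammed cells, against 13.3 in DDC biliary cells. At the edge of the choice, Rasa3 and Ninj2 regions passed with ratios of 0.7501 and 0.7505, and Gmpr and L3mbtl4 regions missed at 0.7494 and 0.7464. Values next to the limit thus differed by far less than the 3 libraries did.

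**Figure D2:**
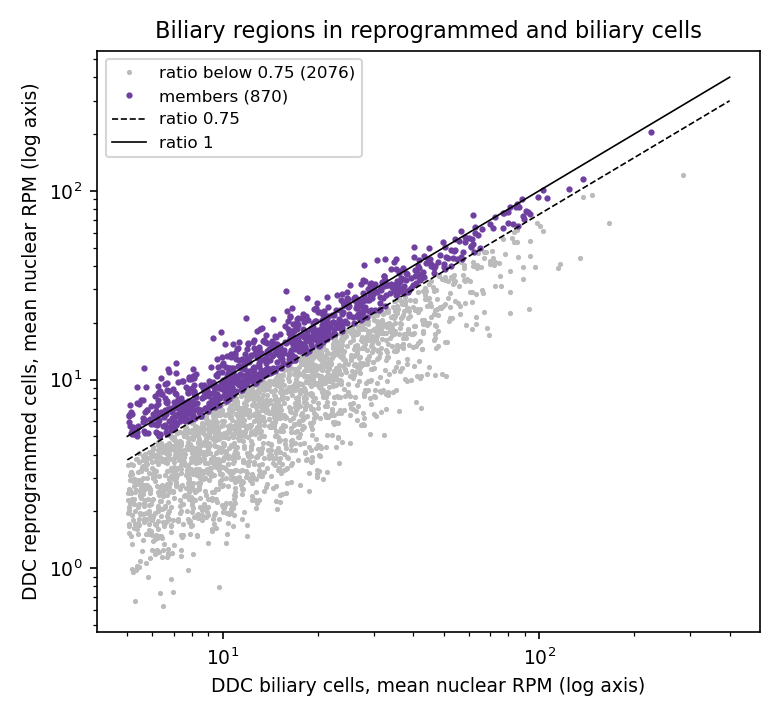
Mean nuclear RPM of each biliary region in DDC biliary cells (x, log axis) and reprogrammed cells (y, log axis), with the 870 members in purple and the 2076 regions below a ratio of 0.75 in grey. Members lie along the line of ratio 1, with a median ratio of 0.931, and the grey points spread downward to a median of 0.473.

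By limma over all 79075 regions that passed a mean of 1 RPM, no region differed between reprogrammed and DDC biliary cells at an adjusted p under 0.05 (0 members, 0.0% of all tested). At an unadjusted p under 0.05 there were 4309 regions, 0 of them members. By edgeR 825 regions were higher and 1382 lower (1.04% and 1.75% of all), 0 of them members, and 598 of the lagging regions were among those lower. These counts follow from the ratio that chose the members and are printed as description. The choice fixed the direction against DDC hepatocytes, so nothing is read from the 728 members called higher there by limma (8.14% of all regions tested). Biliary cells after DDC differed from untreated ones in 0 members by limma (2.92% higher and 0.545% lower over all regions), with 23 higher and 15 lower at an unadjusted p under 0.05 (4.37%, against 15.3% of all). By edgeR 48 members were higher and 32 lower (9.82% and 3.48% of all). Reprogrammed cells differed from untreated biliary cells by limma in 1 member, which was lower (1.89% higher and 0.797% lower over all), and by edgeR 35 members were higher and 32 lower (8.49% and 3.98%). In 854 members each of the 9 reprogrammed and biliary libraries lay above each DDC hepatocyte library (11.3% of all regions).

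Untreated liver gave a comparison in which one arm was not chosen. Untreated biliary cells were higher than untreated hepatocytes in 707 of 870 members (81.3%) and lower in 0 by limma at an adjusted p under 0.05, against 22.1% higher and 10.9% lower over all regions. The members' median difference was 2.78 on the log2(RPM + 1) scale (quartiles 2.04 and 3.48), and the median over all regions 0.39. Untreated biliary cells had been required to be open, so a high share is partly fixed by the choice. The lagging regions, under the same requirement, gave 1651 of 2076 (79.5%) and a median of 2.73, close to the members. Of the other 24120 regions at 5 RPM or more in the same 3 groups, 31.6% were higher. Here and below, these other open regions include the lagging regions at 5 RPM or more in reprogrammed cells.

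Without a model, every untreated biliary library exceeded every untreated hepatocyte library in 640 members (24.6% of all regions did so). In 577 members all 9 reprogrammed and biliary libraries exceeded all 3 untreated hepatocyte libraries (19.3% of all regions). The mean of untreated hepatocytes also lay at least 4-fold below all 3 open groups in 524 members (60.2%, against 28.6% of all regions, 48.7% of lagging and 11.5% of other open regions), of which 228 had no read in untreated hepatocytes. With only the groups compared in the fit, 409 members were higher and 0 lower (11.8% and 5.74% of all). With reads thinned to the smallest library 266 were higher and 0 lower (3.74% and 3.31%). EdgeR called 732 higher and 0 lower (20.9% and 7.63%). On simulated reads with no change, limma called 11 of 867 member regions and edgeR 0. Over all 77113 unchanged regions limma called 1037 higher and 44 lower. The simulation gave every library the same pooled read shares, so it lacks the low member counts of untreated hepatocytes. It therefore gives no error rate for the calls above.

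**Figure D3:**
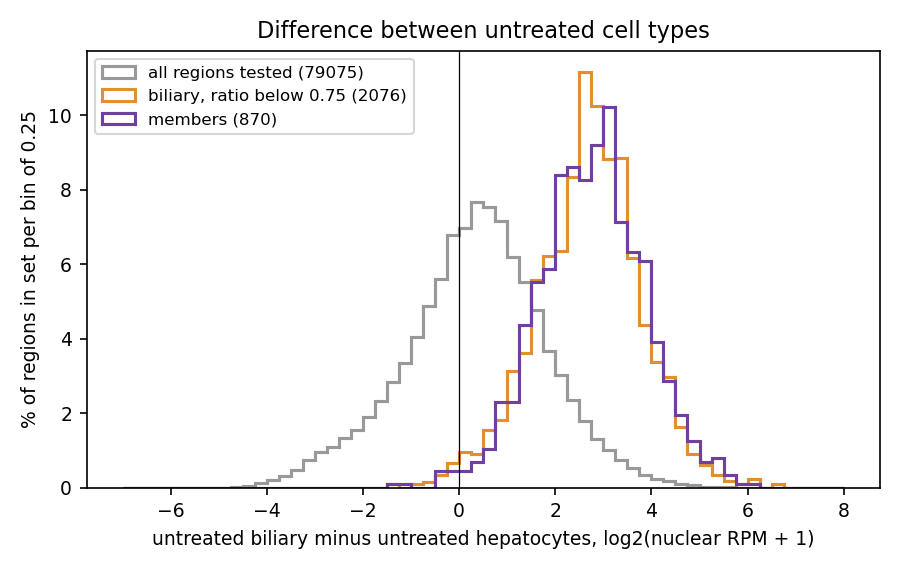
Distribution of the difference between untreated biliary cells and untreated hepatocytes, in log2(nuclear RPM + 1), as % of regions per bin, for members (purple), lagging regions (orange) and all regions tested (grey). Members and lagging regions lie together with medians of 2.78 and 2.73, and all regions have a median of 0.39.

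Reprogrammed cells, set against untreated hepatocytes, were higher in 714 members and lower in 0 by limma (27.2% and 10.4% of all regions). Reprogrammed cells had been chosen high, so a high share is partly fixed by the choice here too. The median difference was 2.80, and 0.53 over all regions. EdgeR called 753 members higher (24.7% of all, and 7.56% lower). A fit of only these groups called 427 (15.6%, and 6.54% lower), and thinned reads 261 (4.01%, and 2.86% lower). The comparison shares the untreated hepatocyte libraries with the preceding one, and cell state and treatment differ together in it.

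Between DDC and untreated hepatocytes members were called in both directions. DDC hepatocytes were higher in 61 members (7.01%) and lower in 27 (3.10%) by limma at an adjusted p under 0.05, against 9.94% and 2.2% over all regions. The members' median difference was 0.30, and that of all regions 0.32. With only these groups in the fit limma called 0 members in either direction and 0 of 68629 regions (0.0%), where 674 of the 870 members passed the filter. At an unadjusted p under 0.05 it called 53 of these higher and 12 lower, or 9.64%, against 13.9% of all regions in either direction. EdgeR called 12 higher and 7 lower (6.49% and 0.445% of all), and thinned reads left 2 higher and 0 lower (0.274% and 0.039%). Scaling by all reads, mitochondrial ones included, moved the counts to 187 higher and 3 lower (47.6% and 0.269% of all), and scaling by TMM size factors to 131 and 14 (23.5% and 0.879%). Under each of these scalings the share of members higher, 21.5% and 15.1%, was below that of all regions. Leaving out 1 library also moved them. Without DDC hepatocyte library 1 there were 31 higher and 20 lower (5.94% and 1.09% of all), and without library 2 there were 62 and 16 (7.04% and 1.46%). Without untreated hepatocyte library 1 there were 99 and 70 (12.4% and 4.09%), without library 2 there were 130 and 76 (18.8% and 5.35%), and without library 3 there were 93 and 65 (13.2% and 4.24%). DDC hepatocytes had been chosen low, so counts in both directions depend on the choice.

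The member with the highest level in reprogrammed cells lay at the start of Csf2ra (chr19:61223992-61229151), which encodes the alpha chain of the GM-CSF receptor. It measured 187, 266 and 162 RPM in reprogrammed cells, 220, 233 and 226 in DDC biliary cells, with 169, 227 and 204 in those untreated. DDC hepatocytes gave 64.0, 44.5 and 30.2 RPM and untreated hepatocytes 19.8, 26.4 and 51.1. All 9 reprogrammed and biliary libraries were above all 6 hepatocyte libraries, and untreated biliary cells exceeded untreated hepatocytes by 2.69 ± 0.30 (limma log2 estimate ± SE, n = 3 per group, adjusted p = 2.05e-05).

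Tinagl1, a secreted protein of the matrix, had a member of 6420 bp over its start (chr4:130171636-130178055), where the TEAD and AP-1 motifs shown above lie. The region measured 128, 92.6 and 86.0 RPM in reprogrammed cells, 135, 134 and 105 in DDC biliary cells, with 72.5, 68.9 and 77.9 in those untreated. Hepatocytes gave 23.9, 10.5 and 13.4 after DDC and 9.92, 6.61 and 17.0 untreated. Every DDC biliary library and every reprogrammed library stood above the untreated biliary libraries, and all of these above the hepatocytes (untreated biliary minus hepatocytes 2.69 ± 0.32, limma adjusted p = 3.76e-05).

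Celsr1, a cadherin of planar cell polarity, had a member in its gene body (chr15:86032561-86036362). Its values were 96.8, 115 and 91.9 RPM in reprogrammed cells, 103, 111 and 95 in DDC biliary cells, with 71.8, 93.4 and 104 in those untreated. The 3 groups overlapped. DDC hepatocytes at 21.8, 10.5 and 22.7 lay above untreated hepatocytes at 0, 3.30 and 8.52, and both lay below all other libraries. The untreated difference was 4.70 ± 0.55 (limma adjusted p = 3.25e-05).

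A region tied by position to Igfbp7, an insulin-like growth factor binding protein, covers the start of the gene model Gm34648 (chr5:77383454-77388818). It measured 132, 81.0 and 132 RPM in reprogrammed cells, 153, 108 and 152 in DDC biliary cells, 79.0, 85.3 and 81.1 in biliary cells without DDC, 17.9, 10.5 and 20.1 in DDC hepatocytes and 49.6, 13.2 and 34.1 in untreated hepatocytes. The untreated difference of 1.5 ± 0.37 passed (limma adjusted p = 0.00553) but not with only these groups in the fit (adjusted p = 0.067). All 6 hepatocyte libraries lay below the other 9, and untreated library 1 was the highest of them.

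**Figure D4:**
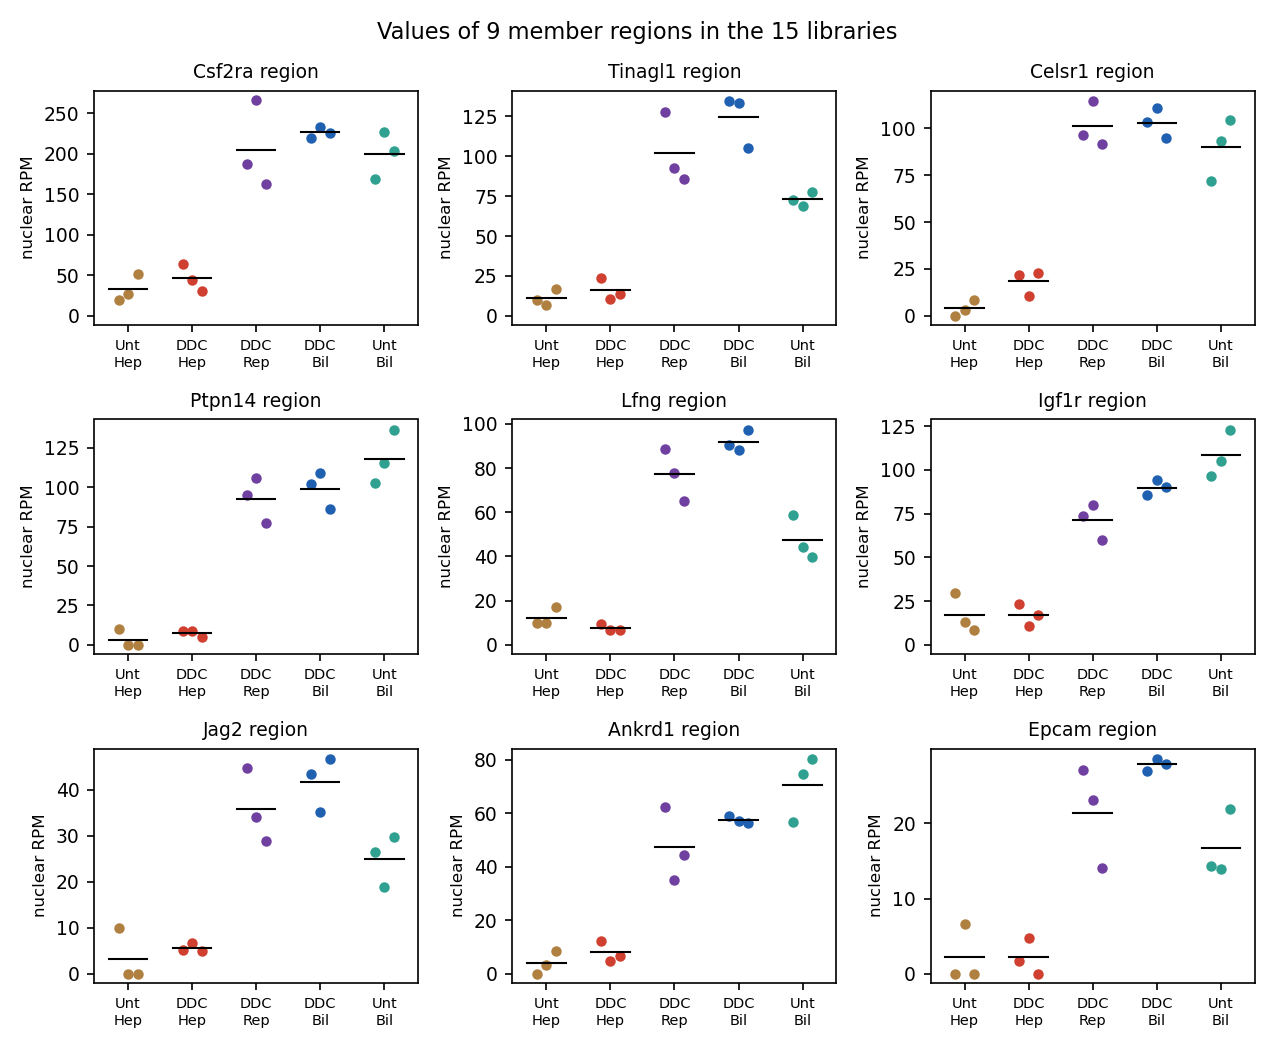
Nuclear RPM of 9 member regions in each of the 15 libraries (points) with group means (bars), each panel with its own linear axis. In each panel the reprogrammed points overlap or border the DDC biliary points and lie above the hepatocyte points, as in the Ptpn14 start region with 77.2 to 106 RPM against 5.04 to 8.62 in DDC hepatocytes.

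The YAP list had members at 6 of its 27 genes with any region. Ptpn14, a phosphatase that binds YAP, had a member over its start (chr1:189727040-189730690), shown above with a TEAD motif. It measured 94.9, 106 and 77.2 RPM in reprogrammed cells, 102, 109 and 86.2 in DDC biliary cells, 103, 115 and 136 in biliary cells without DDC, 8.54, 8.62 and 5.04 in DDC hepatocytes and 9.92, 0 and 0 in untreated hepatocytes. The open and closed libraries did not overlap, and the untreated difference of 5.74 ± 0.63 was among the 6 largest of all members (limma adjusted p = 2.05e-05). Another Ptpn14 member lay in the gene body, with a mean of 38.7 ± 3.42 RPM in reprogrammed cells and 50.6 ± 4.17 in DDC biliary cells.

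Ankrd1, a known YAP target, had a member 8848 bp outside the gene (chr19:36128692-36130611). It measured 62.1, 35.2 and 44.6 RPM in reprogrammed cells, 58.9, 57.3 and 56.5 in DDC biliary cells, 56.7, 74.6 and 80.2 in biliary cells without DDC, 12.4, 4.79 and 6.71 in DDC hepatocytes and 0, 3.30 and 8.52 in untreated hepatocytes. Reprogrammed libraries 2 and 3 lay below all biliary libraries. Tead1, one of the TEAD factors, had members at chr7:112663005-112663956 and chr7:112719983-112721238. The latter reached 27.3, 29.7 and 22.5 RPM in reprogrammed cells and 14.4, 9.84 and 18.7 in untreated biliary cells, which did not overlap.

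The Notch list had members at 4 of 21 genes, by role a ligand, a modifier, a coactivator and a target. Lfng, the Fringe enzyme that modifies Notch receptors, had a member of 6279 bp over its start (chr5:140606336-140612614). It measured 88.7, 77.8 and 65.2 RPM in reprogrammed cells, 90.4, 87.9 and 97.4 in DDC biliary cells, 58.6, 44.3 and 39.6 in biliary cells without DDC, 9.39, 6.70 and 6.71 in DDC hepatocytes and 9.92, 9.91 and 17.0 in untreated hepatocytes. Both DDC groups of open libraries lay above all untreated biliary libraries, and the untreated difference was 1.89 ± 0.28 (limma adjusted p = 0.00015).

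Jag2, a Notch ligand, had a member over its start (chr12:112927493-112930957) with 44.7, 34.0 and 28.8 RPM in reprogrammed cells, 43.5, 35.1 and 46.6 in DDC biliary cells, with 26.4, 18.9 and 29.6 in those untreated. Hepatocytes gave 5.12, 6.70 and 5.04 after DDC and 9.92, 0 and 0 untreated, below all of the open libraries (untreated difference 3.53 ± 0.67, limma adjusted p = 0.000899). Heyl, a Notch target, and Maml2, a coactivator of Notch, had members of 5.49 and 9.42 RPM on average in reprogrammed cells. The untreated difference passed at Heyl (limma adjusted p = 8.82e-05) and not at Maml2 (adjusted p = 0.0684).

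Growth factor receptors and ligands had members at 5 of 18 genes, 9 regions in all. Igf1r, the receptor of insulin-like growth factor, held 4 of them, more than any other gene. Its start region (chr7:67950465-67954696) measured 73.5, 80.0 and 59.7 RPM in reprogrammed cells, 85.3, 94.0 and 90.2 in DDC biliary cells, 96.7, 105 and 123 in biliary cells without DDC, 23.1, 10.5 and 16.8 in DDC hepatocytes and 29.7, 13.2 and 8.52 in untreated hepatocytes. Each reprogrammed library was below each biliary library and above each hepatocyte library. The 3 gene body members lay at chr7:68020182-68022468, chr7:68064525-68066149 and chr7:68127470-68131823, with ratios of reprogrammed to DDC biliary cells of 0.96, 0.91 and 0.80. The middle one had 11.6, 9.66 and 7.57 RPM in reprogrammed cells and no read in any hepatocyte library. The untreated difference passed at all 4 (limma estimates 2.76 to 3.46).

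Fgfr1, a fibroblast growth factor receptor, had 2 members, with 92.0 ± 10.5 and 38.9 ± 7.51 RPM in reprogrammed cells. At the former (chr8:25535107-25538639) untreated biliary cells reached 124, 156 and 191 RPM, above all 3 reprogrammed libraries at 94.7, 101 and 80.5. Erbb2, a receptor kinase of the EGF receptor family, had a start region member of 19.5 ± 2.02 RPM in reprogrammed cells, 23.1 ± 4.34 in DDC biliary cells and 4.71 ± 1.31 in DDC hepatocytes (untreated difference 2.29 ± 0.67, limma adjusted p = 0.0149). Pdgfb, a platelet-derived growth factor, had 1 member, with 11.7 RPM in reprogrammed and 12.6 in DDC biliary cells.

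Cilium and polycystic genes had members at 4 of 19 genes. Of its biliary regions 8 were members and 5 lagged, and no other list had more members than lagging regions. Dzip1l, a protein of the ciliary transition zone, had a member over its start (chr9:99629111-99632972) with 90, 81.8 and 83.9 RPM in reprogrammed cells, 96.3, 78.4 and 80.0 in DDC biliary cells, with 64.2, 68.9 and 70.4 in those untreated. Both DDC groups lay above the untreated biliary libraries. Hepatocytes gave 14.5, 16.3 and 15.1 after DDC and 0, 0 and 25.5 untreated (untreated difference 4.53 ± 0.82, limma adjusted p = 0.000668).

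Glis2 and Glis3, zinc finger factors tied to cystic kidney disease, had 1 and 3 members. The Glis2 start region averaged 81.6 RPM in reprogrammed cells, 80.8 in DDC biliary cells and 11.8 in DDC hepatocytes. The Glis3 members had no read in untreated hepatocytes. At one of them (chr19:28623515-28625266) reprogrammed cells gave 28.2, 18.5 and 28.6 RPM and untreated biliary cells 9.07, 11.5 and 9.57, with no overlap. At another (chr19:28649229-28650594) the order was the opposite, with 14.0, 15.5 and 11.1 RPM in reprogrammed cells and 18.1, 27.1 and 21.2 in untreated biliary cells. Members of one gene thus did not rank the groups alike. Bicc1, an RNA-binding protein also tied to cysts, had 3 members of 6.45 to 6.97 RPM in reprogrammed cells, and the untreated difference passed at 1 of them (limma adjusted p = 0.000465).

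Basement membrane and integrin genes had members at 3 of 20 genes. Itgb6, the beta subunit of an integrin of injured epithelium, had 3. Its strongest (chr2:60702921-60704221) measured 39.8, 21.4 and 41.4 RPM in reprogrammed cells, 45.9, 34.0 and 46.4 in DDC biliary cells, 29.5, 48.0 and 36.2 in biliary cells without DDC and 5.55, 3.35 and 3.36 in DDC hepatocytes, with no read in untreated hepatocytes. At a second (chr2:60697609-60698806) untreated hepatocyte library 1 stood at 19.8 RPM, above every other library, which at 4.96 RPM a read is 4 reads, and the untreated difference did not pass (limma adjusted p = 0.384). Itga3, a laminin-binding integrin subunit, and Itgb4, the integrin subunit of hemidesmosomes, had members of 63.4 and 29.4 RPM on average in reprogrammed cells.

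Biliary identity genes had members at 6 of 24 genes and epithelial transcription factors at 5 of 20. For identity genes 8 biliary regions were members and 22 lagged, and for the factors 6 and 14. Cd24a, a surface glycoprotein of bile duct cells, had a gene body member with 76.0 RPM in reprogrammed cells, 77.0 in DDC biliary cells and 17.9 in DDC hepatocytes (means of 3). Sctr, the secretin receptor, had a member of 10.9 RPM in reprogrammed cells at which the untreated difference did not pass (limma adjusted p = 0.0586). Sox4, Elf5 and Grhl3, transcription factors of epithelial and progenitor cells, had members of 6.06, 11 and 5.52 RPM in reprogrammed cells. The Grhl3 region had no read in any of the 6 hepatocyte libraries.

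The marker genes of the biliary state lay largely outside the members. Of 14 regions tied to Epcam, the surface adhesion molecule of biliary epithelium, 1 was a member (chr17:87612594-87614292), 21687 bp outside Epcam and over the start of the gene model Gm46609. It measured 27.1, 23.1 and 14.1 RPM in reprogrammed cells, 27.0, 28.5 and 27.9 in DDC biliary cells, 14.4, 13.9 and 21.9 in biliary cells without DDC, 1.71, 4.79 and 0 in DDC hepatocytes and 0, 6.61 and 0 in untreated hepatocytes. Reprogrammed library 3 was about at the untreated biliary level, and libraries 1 and 2 were above it. The untreated difference of 3.14 ± 0.72 passed (limma adjusted p = 0.00339), but not with only these groups in the fit (adjusted p = 0.0567) or with thinned reads (adjusted p = 0.145).

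Epcam's own start region (chr17:87635304-87639691) missed the choice, with 56.0 ± 7.37 RPM in reprogrammed cells against 82.1 ± 8.23 in DDC biliary cells, a ratio of 0.68. Of 13 regions tied to Grhl2, a grainyhead factor that controls epithelial junction genes, 0 were members and 4 lagged. The strongest of them (chr15:37232068-37234948) had 22.9 ± 2.02 RPM in reprogrammed cells, 67.1 ± 3.81 in DDC biliary cells, with 82.9 ± 5.0 in those untreated, a ratio of 0.34. Full gain therefore describes the chosen regions and not the biliary marker genes as wholes.

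Other lists held 3 members or fewer each. Over all genes with a region 3.90% had a member, and shares of regions follow further on. Junction and polarity genes had members at 3 of 31 genes, among them the tight junction claudins Cldn2 (16.4 RPM in reprogrammed cells, 19.6 in DDC biliary cells) and Cldn10 (6.11 and 7.86). Duct transport genes had members at 3 of 21, among them the potassium channel Kcnn4 (12.4 and 12.1 RPM) and the export pump Abcc4 (9.40 and 9.36). Untreated biliary cells averaged 15.5 RPM at Cldn2, but 25.7 at Cldn10 and 17.3 at Abcc4, where each of their libraries exceeded each reprogrammed library. At Kcnn4 they averaged 7.96 RPM and untreated hepatocytes 8.35, and the untreated difference did not pass (limma adjusted p = 0.80). For AP-1 genes 1 of 11 had a member, tied to Fos, and for inflammation and chemokine genes 1 of 19, tied to the neutrophil chemokine Cxcl5. Simple keratins had 0 members at 7 genes, with 8 regions that lagged.

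Hepatocyte function genes had 0 members at 27 genes, and macrophage, endothelial, stellate and lymphocyte markers 0 at 4, 10, 9 and 6 genes with a region. Neuronal genes, listed as a control, had members at 2 of 12, Snap25 and Syt1. Over all genes, 641 of 16426 with a region had a member (3.90%). Listed genes carry many regions each, so shares of regions were compared. The 2.76% for biliary identity, 2.85% for YAP, 3.77% for cilium, 3.83% for growth factor and 2.94% for epithelial transcription factor genes lay above the neuronal 2.30%. Below it lay Notch genes at 1.87%, basement membrane at 1.78%, AP-1 at 1.79%, duct transport at 1.34%, junctions at 1.08%, inflammation at 0.971% and keratins at 0%. Over all tied regions the share was 0.921%. The neuronal share rests on 2 of 87 regions. Some lists share genes, such as Bicc1 (identity and cilium) and Tead1 (YAP and epithelial factors). Igf1r alone held 4 of the 9 growth factor members. The lists thus fell on both sides of the neuronal control, which is too small to rank them.

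Summed levels of the marker lists describe their regions and cannot show which other cells the libraries held. The neuronal control list summed to 401 to 459 RPM in reprogrammed cells, above the stellate and macrophage sums given below. Regions of hepatocyte function genes summed to 1482 to 2590 RPM in reprogrammed cells, 1113 to 1809 in DDC biliary cells, 1286 to 2735 in untreated biliary cells, 5988 to 8316 in DDC hepatocytes and 8494 to 12230 in untreated hepatocytes. Biliary identity genes summed to 2483 to 3003 RPM in reprogrammed cells, below DDC biliary cells at 3498 to 3759. Stellate markers reached 254 to 283 RPM in reprogrammed cells, 225 to 255 in DDC biliary cells and 135 to 181 in DDC hepatocytes, and macrophage markers 129 to 169, 151 to 168 and 120 to 185. Endothelial markers summed to 189 to 246, 176 to 201 and 241 to 258 RPM in the same order. Lymphocyte markers summed to 58.7 to 70.2, 58.4 to 64.4 and 79.8 to 91.5 RPM. Of these groups DDC hepatocytes had the highest mean for both lists. The macrophage markers Adgre1, Clec4f, Lyz2 and Timd4 had no region tied to them. No listed macrophage, endothelial or stellate gene with a region was at 0 in all libraries of a group. In bulk cells, fewer open cells and less open DNA per cell cannot be told apart, and the part of other cells in the members' levels was not tested.

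Single genes rarely gathered many members. Of 870 members 741 were tied to a gene, and 555 genes had 1, 73 had 2 and 13 had 3 or more. After Igf1r, genes with 3 included Arhgef10, Smad6, Ctnnd2, Slco3a1, Cuedc1, Cmss1, Etl4 and Rora. Smad6, an inhibitor of BMP signalling, had members of 44.7, 29.4 and 6.18 RPM on average in reprogrammed cells, all with untreated differences that passed. Ctnnd2, delta-catenin, had a start region member of 43.5 RPM and a pair of gene body members of 16.9 and 18.1 RPM. Another member lay within 50 kb for 173 of the 870.

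The largest untreated difference was at a region over 50 kb from any gene (chr13:52338829-52339910). It measured 44.9, 50.3 and 37.8 RPM in reprogrammed cells, 55.7, 50.5 and 46.4 in DDC biliary cells, 51.4, 91.0 and 71.8 in biliary cells without DDC and 5.12, 1.92 and 3.36 in DDC hepatocytes, with no read in untreated hepatocytes. The estimate of 6.14 ± 0.36 depends on the added 1 RPM where a group is at 0. Regions tied to Fzd9, a Wnt receptor, and Adamts16, a matrix protease, were also among the 6 largest, with 5.92 ± 0.43 and 5.69 ± 0.51 and no read in untreated hepatocytes. The Adamts16 region (chr13:70802502-70803728) gave 12.5, 13.8 and 5.89 RPM in reprogrammed cells, 13.4, 19.8 and 8.31 in DDC biliary cells, with 32.5, 60.2 and 66.1 in those untreated. Both groups after DDC lay below untreated biliary cells, with a ratio of 0.20 for reprogrammed cells.

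At the other end, 6 members had the smallest untreated differences and none passed by limma with all libraries. Pcdh9 passed as lower without untreated hepatocyte library 2 (-1.49, adjusted p = 0.0231), and Gprc5a without untreated biliary library 1 (-2.08, adjusted p = 0.0211). Their estimates ran from -1.38 at Gprc5a, an orphan receptor (adjusted p = 0.111), and -1.04 at the protocadherin Pcdh9 (adjusted p = 0.134), to -0.25 at Apbb2 (adjusted p = 0.755). All 6 turned positive when all reads, mitochondrial ones included, set the scale. Mean levels in untreated hepatocytes were 12.3 RPM at Gprc5a and 14.5 at Pcdh9, against 0.319 and 1.48 in DDC hepatocytes. In 465 of the 870 members the mean of untreated hepatocytes exceeded that of DDC hepatocytes. DDC hepatocytes had been chosen low, so this count is partly fixed by the choice. The same was not counted over all regions. On the log2 scale the median of DDC minus untreated hepatocytes was 0.30 for members and 0.32 for all regions.

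The members, like all regions, lay mostly away from start sites. Of the 832 on chromosomes whose start sites were at hand (chromosome 18 was not analysed here for these), 17.8% overlapped the window from 250 bases before to 50 after a start. This compares with 10.6% of lagging regions, 42.8% of other regions open in the same 3 groups and 13.9% of all. Another 45.4% lay in gene bodies, 22.4% within 50 kb of a gene and 14.4% farther, near the 48.2%, 24.7% and 13.2% of all regions. Width had a median of 1359 bp for members, 1209 bp for lagging, 1815 bp for other open and 706 bp for all regions. Members over start sites drew more reads in reprogrammed cells than those in gene bodies, with medians of 19.6 and 12.5 RPM. They were also wider, with medians of 1882.5 and 1299 bp, and RPM is not divided by length. Members beyond 50 kb had medians of 13.6 RPM and 1095 bp.

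**Figure D5:**
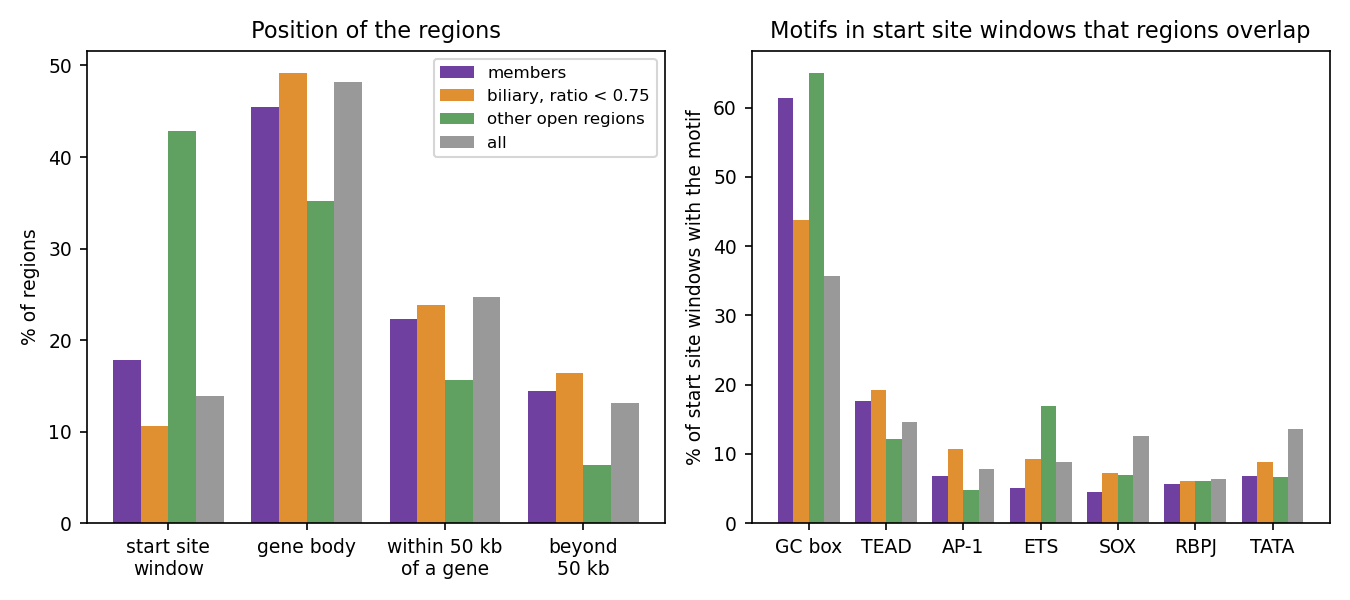
Left, share (%) of regions in each position class, and right, share (%) of start site windows with each motif, for members, lagging regions, other open regions and all. Members overlap start site windows in 17.8%, between lagging (10.6%) and other open regions (42.8%), and GC boxes stand in 61.4% of the members' windows.

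The start site windows under members were rich in CpG. The 176 windows had a median GC content of 63% and 20 CpG, the 260 windows under lagging regions 56.3% and 7.5, the 13753 under other open regions 61.7% and 21, and all 32851 windows 52.7% and 7. A GC box (GGGCGG, either strand) stood in 61.4% of the members' windows, 43.9% of lagging, 65.0% of other open and 35.7% of all. The TEAD letters GGAATG stood in 17.6%, 19.2%, 12.1% and 14.7%, in the same order, and the AP-1 letters TGANTCA in 6.82%, 10.8%, 4.83% and 7.81%. The ETS letters CCGGAAG stood in 5.11%, 9.23%, 16.9% and 8.86%, lowest under members. RBPJ letters stood in 5.68% of the members' windows and 6.38% of all, and the letters searched for GRHL (AACCNGGTT) in 0 of 176 and 0.271% of all. The lagging windows resembled the members in TEAD letters and differed in GC, and these shares are descriptions of letters in these windows.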

How the data were processed

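Accessible regions of mouse liver cells were measured by ATAC-seq in 15 libraries. Per the submitters' processing notes, the authors used Bowtie2, SAMtools, MACS2 and bedtools with the mouse build mm10. Versions, settings and the merging of regions are not given there. The values, which the authors deposited as TPM, are RPM: each was a whole number of reads (100% of values up to 100 reads, tolerance 0.02) with no division by length. For DDC reprogrammed library 1 the step is close to a power of 10 and so is weaker evidence. The plan had already taken RPM.

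From them, 2 mitochondrial regions were removed and each library rescaled to 1000000. Tests used limma-trend on log2(RPM + 1) with all 15 libraries, a mean of at least 1 as filter, and p-values adjusted by Benjamini-Hochberg over all regions kept. Levels are mean ± SD and differences estimate ± SE, n = 3. Adjusted p-values of named regions come from the fit of all 15 libraries unless stated. Most are not given here under other fits. EdgeR quasi-likelihood tests ran on recovered reads. Regions went to the protein-coding gene touched, or the nearest within 50 kb, by RefSeq (GRCm38.p6). In simulated reads for untreated biliary cells against hepatocytes, limma recovered 9% of 2-fold and 53% of 4-fold changes of 100 each, and edgeR 0% and 32%. Of 77113 unchanged regions limma called 1037 higher and 44 lower, and edgeR 3 and 0.

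Library pairs within groups differed by more than independent sampling of single reads allows (chi-square over its degrees of freedom, 2.18 to 7.46). Reads recovered in the named regions were mostly even numbers in hepatocyte libraries, such as 4, 16 and 12 at Csf2ra in untreated hepatocytes. Whether reads were counted in pairs was not tested, and counting in pairs would raise this ratio. Deviations from the group means correlated at -0.229 to 0.263 between same-numbered libraries and at -0.312 to 0.328 between differently numbered ones. With 3 libraries per group this cannot exclude that same-numbered libraries share an animal. Numbers are used here only to name libraries. Other scalings, pseudocounts, filters, fits and limits of the choice were tried. The member rule and gene lists were chosen with earlier results of these data known. Named are Epcam and Grhl2, up to 4 genes per list and 12 overall by number of members, the 8 regions highest in reprogrammed cells, and the 6 largest and 6 smallest untreated differences, and regions next to each limit. Those on chromosome 18 are counted and not described. The analysis ran in R 4.3.3 with limma 3.58.1 and edgeR 4.0.16, and in Python 3.11.15 with numpy 2.4.6, pandas 2.3.3, scipy 1.17.1 and matplotlib 3.10.9.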

Additional observations from a re-analysis of the deposited data

How the results depend on the processing

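The number of members moved with the limits: 1652 with a level minimum of 2 RPM, 489 with 10, 1358 with a fold of 3, 462 with 6, 1450 with a ratio of 0.5, 305 with a ratio of 1, and 181 when every open library had to be 4 times every DDC hepatocyte library. Leaving out 1 library gave 667 to 1085. With mitochondrial reads in the scale 1198 regions qualified, 785 of them shared. Members higher in untreated biliary cells than hepatocytes numbered 409 with only these groups, 266 with thinned reads and 595 to 714 without 1 library. For reprogrammed cells against untreated hepatocytes the counts were 427, 261 and 591 to 722. For DDC against untreated hepatocytes, members higher numbered 187 with all reads in the scale, 131 with TMM, 8 with a pseudocount of 5, 0 with only these groups, 12 by edgeR, 2 with thinned reads and 31 to 130 without 1 library. Members lower numbered 3, 14, 22, 0, 7, 0 and 16 to 76. The lowest count for higher came without DDC hepatocyte library 1, and the highest in both directions without untreated hepatocyte library 2. The cause of these moves was not tested, but thinning keeps fewer reads. Over all regions edgeR called 25183 between reprogrammed cells and DDC hepatocytes (limma 11232), 2207 against DDC biliary cells (limma 0), 9860 against untreated biliary cells (limma 2128), and 10522 between the biliary groups (limma 2741).

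With the replicate number as a block, members higher numbered 704 for untreated biliary cells against hepatocytes, 712 for reprogrammed cells against untreated hepatocytes, and 53 higher and 28 lower for DDC against untreated hepatocytes, so the block moved no count by 1.5 times.

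The median of all regions between untreated biliary cells and hepatocytes was 0.39, 1.19 with all reads in the scale and 0.88 with TMM. The smallest untreated differences turned positive under some settings. With all reads they were 1.11 at Odc1, 0.60 at Pcdh9, 1.01 at the chromosome 16 region, 1.19 at Etl4, 1.22 at Apbb2 and 0.23 at Gprc5a, near or below the shift of all regions. With TMM they were 0.47, 0.33, 0.52 and 0.56 at Odc1, the chromosome 16 region, Etl4 and Apbb2, and by edgeR 0.63, 0.24, 0.45 and 0.53. The chromosome 16 region gave 0.84 with thinned reads. Without 1 library the estimates ran from -1.05 to 0.088 at the chromosome 16 region and from -0.86 to 0.27 at Etl4 (lowest without untreated hepatocyte library 2, highest without library 1), and from -0.73 to 0.10 at Odc1 (lowest without untreated hepatocyte library 2, highest without untreated biliary library 2). In untreated hepatocytes 532 of 870 members had 3 reads or fewer, which limits these values.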
